A study of Mus musculus with 8 samples.

Results

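The genes described here encode laminin chains, nidogens, collagens, and the secreted or membrane-bound proteases and inhibitors that remodel extracellular matrix. The rule reads only the symbol, though it was set with earlier results of these data known, and takes each row named as a collagen chain (Col), laminin chain (Lama, Lamb, Lamc), nidogen, ADAMTS or ADAMTS-like protein, matrix metalloproteinase (Mmp) or tissue inhibitor of metalloproteinases (Timp), without the interstitial collagens Col1a1, Col1a2 and Col3a1. The rule found 81 of the 16096 genes in the table. They comprise 35 collagens, 10 laminins, 2 nidogens, 17 ADAMTS genes, 4 ADAMTS-like genes, 10 metalloproteinases and 3 inhibitors.

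RNA came from the peripheral retina of mouse embryos of the C57BL/6 strain, taken at embryonic day 16.5. The 4 libraries called cKO here are from Pax6alpha-Cre:Ezh2fl/null embryos, which carry 1 floxed and 1 null Ezh2 allele, and the 4 control libraries are from Pax6alpha-Cre:Ezh2fl/+ embryos, with the floxed and a wild-type allele. Both groups carry the Pax6alpha-Cre driver, which acts in the peripheral retina, so control cells with active Cre have lost 1 Ezh2 allele; where Cre is not active, cKO cells still have 1 null allele. Ezh2 encodes the methyltransferase of Polycomb repressive complex 2, which places a repressive mark on histone H3 and is found mainly at CG-rich promoters of silent or weakly expressed genes.

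As background, a basement membrane is a thin sheet in which a laminin network, built from trimers of an alpha, a beta and a gamma chain, and a collagen IV network are linked by nidogens and perlecan. In the eye such sheets form the inner limiting membrane, on which Müller glia and neuroepithelial endfeet rest, the sheet below the pigment epithelium, and the walls of vessels. The vitreous gel next to the retina holds fibrils of collagens II, V/XI and IX, much of it made by the nonpigmented ciliary epithelium that arises at the retinal periphery. Metalloproteinases and ADAMTS proteases cut collagens and proteoglycans, and TIMPs block them.

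Libraries held 13994825 to 18391647 counts, and the 81 genes took 0.153% to 0.178% of them. Ezh2 stood at 276, 251, 255 and 220.4 CPM (counts scaled to normalized library sizes) in the cKO libraries and at 235, 230.2, 197 and 207 CPM in the controls, so the whole-gene count was not lower in the libraries labelled cKO (log2 fold change 0.21, edgeR adjusted p = 0.0701). These counts do not check the loss of single exons, and each direction below is that of the libraries labelled cKO against those labelled control. Retinal markers were plain in each library. The 12 genes listed for retinal neurons and progenitors, such as Pax6, were all tested, 2 of them higher (Otx2 and Crx) and 4 lower (among them Ccnd1). Over all genes tested, 8.35% were called higher and 3.46% lower. The list summed to 5505 to 5957 CPM in the cKO libraries and 6739 to 6971 CPM in the controls. Ccnd1 alone made up most of these sums and of their difference, at means of 3217 CPM in the cKO libraries and 4102 CPM in the controls. Pax6 was at means of 681 and 729 CPM and was not called. Xist was counted 1874 and 1714 times in cKO replicates 2 and 3 and at most 4 times in the other libraries, so both libraries with Xist counts are in the cKO group. The Y-linked genes Ddx3y, Eif2s3y, Kdm5d and Uty summed to 0.766 and 0.787 CPM in those libraries and to 196 to 231 CPM in the others. By these genes cKO replicates 2 and 3 are female and the other cKO libraries and all controls male. Sex is thus partly confounded with group. Control replicates 1 and 3 had more mitochondrial rRNA (13.7% and 13.5% of counts) than 2 and 4 (8.72% and 8.19%), while cKO replicate 2 had 14.01% and the other cKO libraries 9.84% to 11.1%. Lens crystallin counts stood out in cKO replicate 2 and control replicate 1 (87 and 137 counts for 4 genes, against 3 to 10 elsewhere). The labels name separate samples but not the embryo or litter of each, so p-values reflect only how these samples vary, which may in part be technical. Values given as 4 numbers are in the order of replicates 1 to 4.

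More matrix genes were higher than lower in the cKO libraries. Of the 81 genes, 69 passed the filter on low counts and were tested, of which 20 were called higher, 6 lower and 43 were not called at an adjusted p under 0.05 (edgeR quasi-likelihood test, Benjamini-Hochberg adjustment over all 15014 genes tested). That is 29.0% and 8.70% of the tested members, where 8.35% of all genes tested were called higher and 3.46% lower. The groups of libraries did not overlap in CPM for 20 members that were higher and 7 that were lower, against 10.1% and 6.21% of all genes tested. The median log2 fold change was 0.20 over the tested members and -0.01 over all genes tested. Among the called members the median was 0.72 for those that rose and -0.37 for those that fell, and 5 rose by at least 2-fold whereas 0 fell by as much.

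On the authors' FPKM scale, which divides by gene length, 16 of the 20 members that rose had a control mean under 2 FPKM, as did 43 of all 69 tested, and the most abundant of them, Col4a6, stood at 4.72 ± 0.782 FPKM in the controls (SD, n = 4). The median control level was 0.729 FPKM for the members that rose and 10.9 FPKM for the 6 that fell, a difference that was not tested. The summed FPKM of all 81 genes was 299 ± 18.4 in the cKO libraries and 296 ± 11.3 in the controls. The counts of calls moved with the libraries used. With the 2 libraries with Xist counts left out there were 14 higher and 2 lower, with control replicates 2 and 4 left out 13 higher and 2 lower, and with control replicates 1 and 3 left out 14 higher and 4 lower. With counts scaled by library totals alone there were 22 and 3, and over all genes that scaling moved the share of higher calls from 70.7% to 82.5%. No called member changed direction in any of the 19 alternative fits, and 11 of the 26 kept their call in each of them. These were Lamb1, Nid1, Col9a1, Col9a3, Col26a1, Adamts18, Adamts3, Adamts20, Adamtsl1, Mmp17 and Mmp28.

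**Figure D1:**
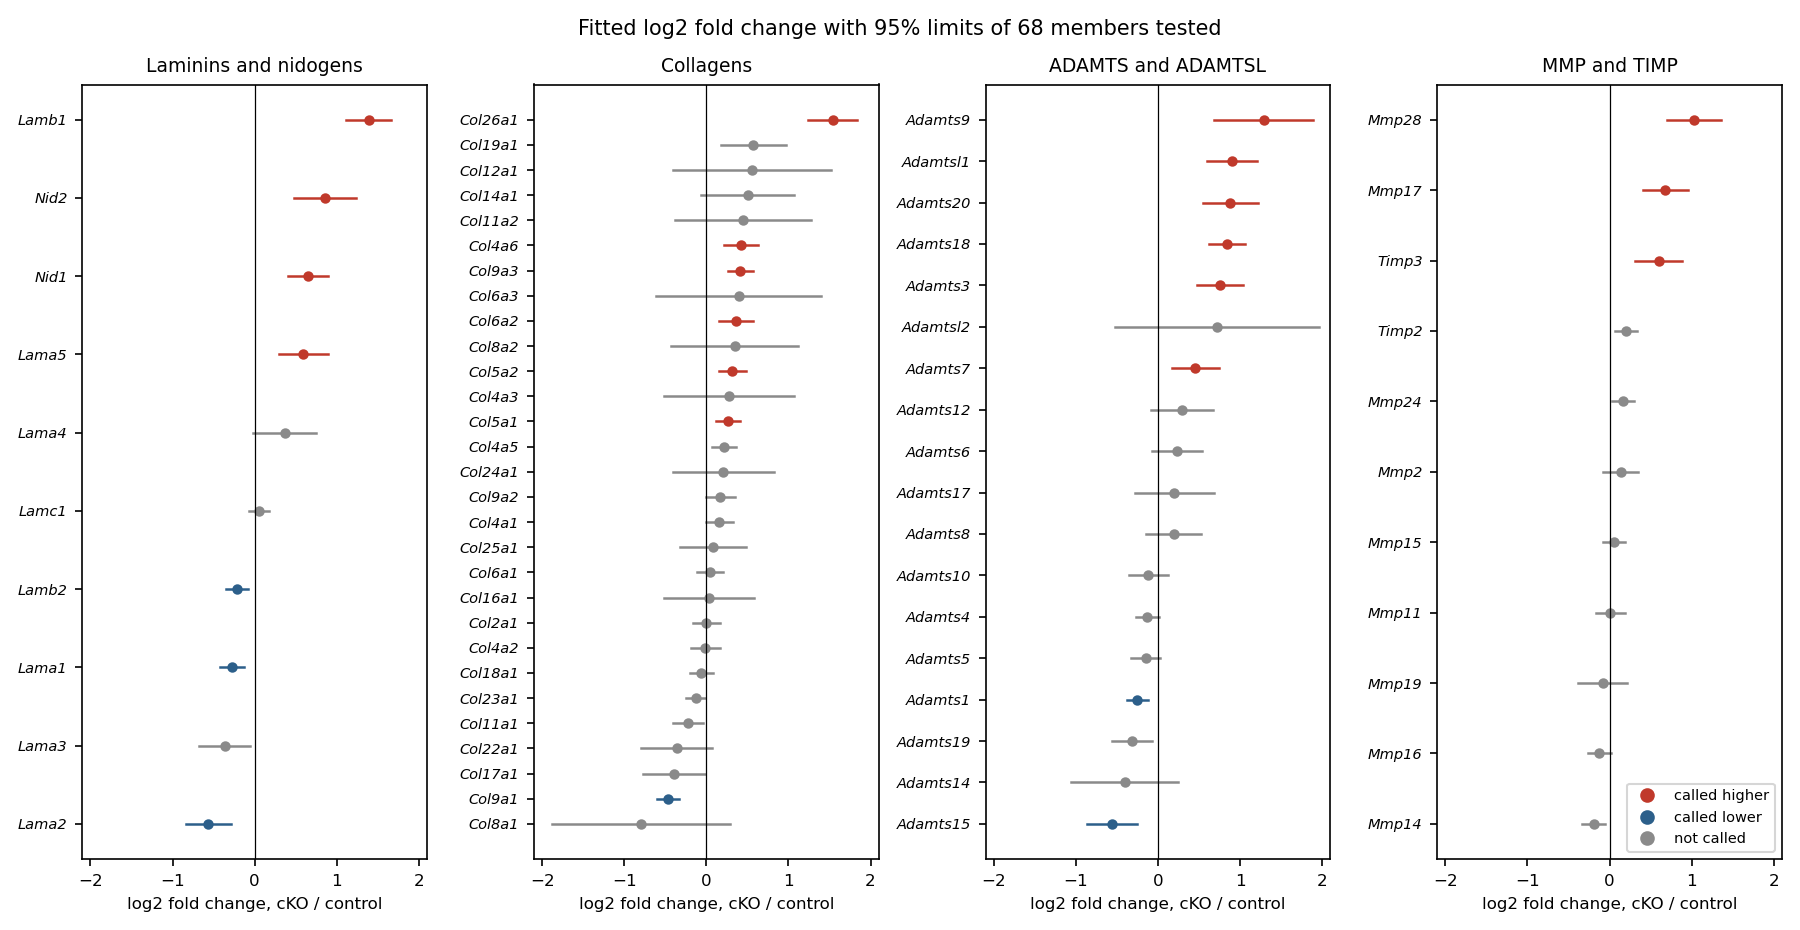
Fitted log2 fold change (cKO over control, horizontal axis) of 68 of the 69 members tested, with 95% limits as bars, in 4 panels by family. Members called higher (19 drawn) are red, the 6 called lower blue and the 43 not called grey; Col26a1 and Lamb1 lie farthest to the right among them, and Col8a1 has the widest limits of the collagens.

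Promoters of the 5 called ADAMTS genes that have a RefSeq window, a family with calls in both directions, and of the head-to-head pair Col4a5 and Col4a6 are shown first, since Polycomb repressive complex 2 is known for its place at CG-rich promoters and these genes range from CG-rich to CG-poor. Lamb1, Lamb2 and Col9a1 were added after their values were seen, as genes that moved in opposite directions. Each run ends at the base before the annotated start or the first annotated exon, is 150 bases long (124 for Lamb2) and reads 5′ to 3′ on the gene's strand. The sequences are from RefSeq on GRCm38.p6, and CG dinucleotides are in capitals.
Adamts3 (higher, chr5:89883335-89883484, minus strand): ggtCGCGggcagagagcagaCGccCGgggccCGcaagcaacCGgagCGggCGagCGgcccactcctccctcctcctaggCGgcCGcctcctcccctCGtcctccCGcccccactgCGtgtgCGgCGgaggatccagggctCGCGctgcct
Adamts20 (higher, chr15:94404351-94404500, minus strand): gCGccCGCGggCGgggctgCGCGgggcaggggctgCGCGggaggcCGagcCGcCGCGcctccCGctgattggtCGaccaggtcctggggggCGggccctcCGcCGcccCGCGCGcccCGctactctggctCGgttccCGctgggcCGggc
Adamts9 (higher, chr6:92943535-92943684, minus strand): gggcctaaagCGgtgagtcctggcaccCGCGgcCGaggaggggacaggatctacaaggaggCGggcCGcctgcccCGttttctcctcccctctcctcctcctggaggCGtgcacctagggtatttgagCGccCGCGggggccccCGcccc
Adamts18 (higher, chr8:113848840-113848989, minus strand): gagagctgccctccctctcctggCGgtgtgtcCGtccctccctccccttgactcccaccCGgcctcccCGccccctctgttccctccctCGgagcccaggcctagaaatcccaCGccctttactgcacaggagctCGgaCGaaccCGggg
Adamts1 (lower, chr16:85803114-85803263, minus strand): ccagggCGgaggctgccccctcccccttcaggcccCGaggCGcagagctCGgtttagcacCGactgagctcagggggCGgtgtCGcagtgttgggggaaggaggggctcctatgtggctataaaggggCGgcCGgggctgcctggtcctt
Col4a5 (not called, chrX:141475235-141475384, plus strand): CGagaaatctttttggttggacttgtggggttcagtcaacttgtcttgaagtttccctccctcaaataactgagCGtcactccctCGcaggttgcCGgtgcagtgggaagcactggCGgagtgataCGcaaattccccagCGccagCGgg
Col4a6 (higher, chrX:141474077-141474226, minus strand): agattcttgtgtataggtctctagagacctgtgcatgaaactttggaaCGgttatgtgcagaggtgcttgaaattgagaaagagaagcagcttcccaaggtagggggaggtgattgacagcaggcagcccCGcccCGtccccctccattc
Lamb1 (higher, chr12:31265084-31265233, plus strand): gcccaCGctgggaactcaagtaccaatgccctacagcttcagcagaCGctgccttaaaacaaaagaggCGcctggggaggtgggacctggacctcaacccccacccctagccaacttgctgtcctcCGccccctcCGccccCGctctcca
Lamb2 (lower, chr9:108479612-108479735, plus strand): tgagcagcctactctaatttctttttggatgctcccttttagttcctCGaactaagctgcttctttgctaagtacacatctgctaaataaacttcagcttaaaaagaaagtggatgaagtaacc
Col9a1 (lower, chr1:24177460-24177609, plus strand): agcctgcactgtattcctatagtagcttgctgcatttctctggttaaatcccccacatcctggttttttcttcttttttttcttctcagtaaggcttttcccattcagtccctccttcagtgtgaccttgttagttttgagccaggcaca

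The runs differed widely in CG content. In the 300-base windows from 250 bases before to 50 after the start, Adamts3 and Adamts20 each had 41 CG dinucleotides, Adamts9 had 25, Adamts18 22, Lamb1 18 and Adamts1 18, whereas Col4a5 had 11, Lamb2 4, Col4a6 3 and Col9a1 0. A window was found for 52 of the 81 genes, 42 of them tested. The motif searched was CG, which reads the same on both strands; 94.6% of all 32851 windows in the RefSeq table hold it at least once, and 43.5% hold it 10 times or more. Among tested genes of the whole table with a window, 83.9% held 10 or more. Of the 12 members called higher with a window, 10 held 10 or more (median 23), as did 1 of the 4 called lower, Adamts1 (median 2.5), and 19 of the 26 not called (median 16). Over all genes with a window the medians were 20 for those called higher, 20 for those called lower and 21 for those not called. The RefSeq start lies 61068 bases downstream of the GENCODE start for Adamts20, 2816 for Lama2 and 126 for Lamb2. Col9a1 has another RefSeq start 17593 bases downstream, whose window holds 1 CG and was not used here. Which start these libraries used was not tested. Members called lower with a window are only 4.

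**Figure D2:**
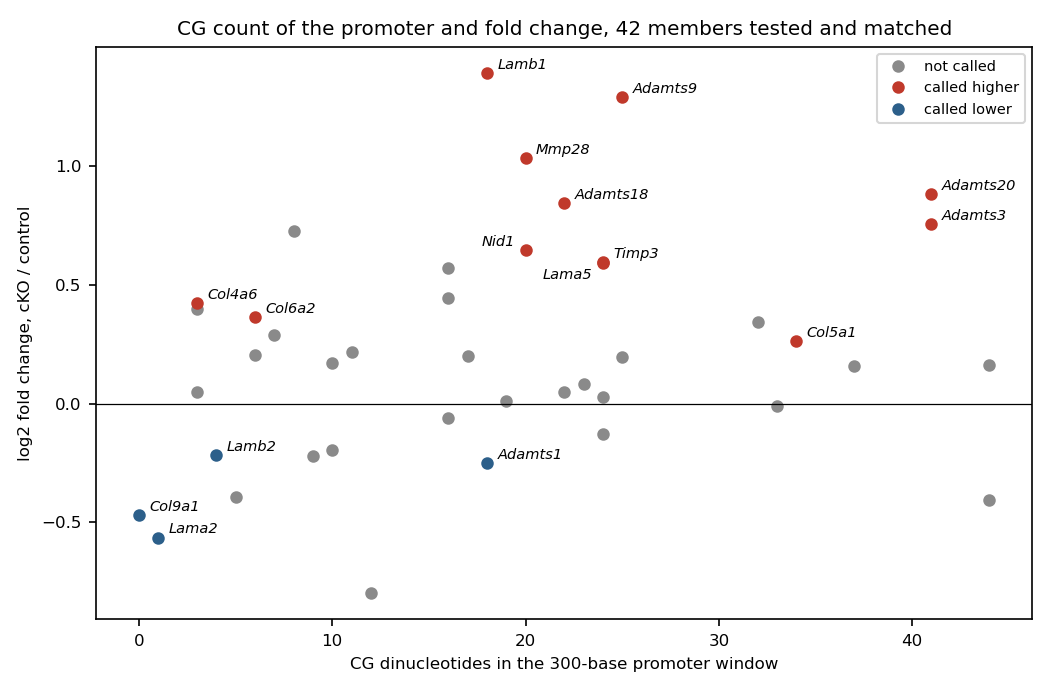
Number of CG dinucleotides in the 300-base promoter window (horizontal axis) against the log2 fold change (cKO over control, vertical axis) of the 42 members tested that have a window. The 12 called higher are red, the 4 called lower blue and the 26 not called grey; Col9a1 and Lama2, with 0 and 1 CG, lie at the lower left and Adamts20 and Adamts3, with 41 each, at the upper right.

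Both laminin beta chains were called, in opposite directions. Lamb1 (ENSMUSG00000002900, chromosome 12, 31265234 to 31329644, plus strand; mm10), the beta chain of the first embryonic laminins, stood at 12.9, 13.9, 14.2 and 12.5 CPM in the cKO libraries and at 5.02, 6.75, 4.7 and 4.01 CPM in the controls. The lowest cKO library was well above the highest control, and the increase was 2.62-fold (log2 fold change 1.39 with an SE of 0.13, edgeR adjusted p = 4.1e-06). Its paralog Lamb2, the beta chain of the mature retinal and synaptic basement membrane, was at 64.9, 59.3, 67.6 and 70.1 CPM in the cKO libraries and 69.8, 78.3, 80.9 and 75.2 CPM in the controls. Those ranges met at control replicate 1, which lay below cKO replicate 4, and the difference was small (log2 fold change -0.22 with an SE of 0.06, edgeR adjusted p = 0.0382). The Lamb2 call was lost in 11 of the 19 alternatives, among them leaving out cKO replicate 1, 2 or 3, or control replicate 2, 3 or 4, at log2 values of -0.26 to -0.17 over all alternatives. Lamb2 remained the main beta chain. Per length, Lamb1 made up 10.4 ± 1.04% of the beta chain FPKM in the cKO libraries and 3.67 ± 0.776% in the controls (SD, n = 4), with 9.22% as the lowest cKO value and 4.66% as the highest control value.

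Of the 5 alpha chains, Lama5 was higher and Lama1 and Lama2 were lower. Lama1, the alpha chain of the embryonic inner limiting membrane and by far the most abundant one here (7.04 ± 0.912 against 8.38 ± 0.203 FPKM), was at 65.9, 58.1, 66 and 75.5 CPM in the cKO libraries and 80.6, 78.1, 84.9 and 78.3 CPM in the controls. The groups did not overlap in CPM (log2 fold change -0.28 with an SE of 0.07, edgeR adjusted p = 0.0163). In FPKM they did, with cKO replicate 4 at 8.17 and control replicate 1 at 8.08. The Lama1 call ended in 6 alternatives, among them scaling by library totals alone, without control replicate 3 and without the 2 libraries with Xist counts (log2 -0.19). Lama2, best known from muscle and nerve, was at 4.25, 4.87, 4.66 and 3.46 CPM against 6.29, 6.55, 7.01 and 5.62 CPM (log2 fold change -0.56 with an SE of 0.13, edgeR adjusted p = 0.00948), a call that ended without control replicates 1 and 3 (log2 -0.50, edgeR adjusted p = 0.0935). Lama5, found in most epithelial and vessel basement membranes, was at 8.87, 7.66, 6.23 and 10.01 CPM against 5.47, 5.04, 6.17 and 5.18 CPM. Its lowest cKO library, replicate 3, was barely above the highest control (log2 fold change 0.59 with an SE of 0.14, edgeR adjusted p = 0.0113), and the call ended without control replicates 2 and 4 (log2 0.50). The endothelial chain Lama4 (log2 0.36, edgeR adjusted p = 0.234) and the epidermal chain Lama3 (log2 -0.37, 0.131) were not called. Lama1 held 79.9 ± 1.86% of the alpha chain FPKM in the cKO libraries and 83.3 ± 0.555% in the controls, and Lama5 8.23 ± 1.27% and 4.72 ± 0.264%.

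Of the gamma chains, Lamc1, part of most laminins, was not called. It was at 53.5, 51.4, 50.7 and 55.5 CPM in the cKO libraries and 51.8, 53, 50.1 and 48.5 CPM in the controls, with overlap (log2 0.05, 95% limits -0.07 to 0.17). Lamc3 was left out by the filter on low counts.

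Both nidogens, which tie the laminin network to collagen IV, rose. Nid1 (ENSMUSG00000005397, chromosome 13, 13437551 to 13512269, plus strand) was at 9.19, 9.54, 10.1 and 9.39 CPM in the cKO libraries and at 5.32, 7.01, 5.12 and 6.79 CPM in the controls. Each cKO library exceeded each control, and the cKO values lay closer together than the control values (log2 fold change 0.65 with an SE of 0.11, edgeR adjusted p = 0.00131). Nid2, which can take the place of Nid1, was at 3.65, 4.53, 2.89 and 4.39 CPM against 1.95, 2.23, 1.82 and 2.45 CPM, again without overlap (log2 fold change 0.85 with an SE of 0.18, edgeR adjusted p = 0.00433). Without control replicates 1 and 3 the Nid2 call ended at log2 0.72 (edgeR adjusted p = 0.0714), whereas Nid1 stayed called at 0.47. Exons of Nid2 share 437 of 5174 bases with 2700060E02Rik on the opposite strand, which had 7958 counts against 378 for Nid2 and a log2 fold change of 0.08. Use of strand in counting was not given in the sources used here.

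Of the 5 tested chains of collagen IV, the other network of the basement membrane, 1 was called higher and 0 lower. The chains Col4a1 and Col4a2, which make up the common trimer, were at 108 ± 9.39 against 96.8 ± 11 CPM (log2 0.16, edgeR adjusted p = 0.221) and at 70.4 ± 7.79 against 71 ± 7.09 CPM (log2 -0.01, 95% limits -0.19 to 0.17). Their genes start head to head on chromosome 8 and share 22 bases at their 5′ ends. Of the head-to-head pair on the X chromosome, 1308 bases apart, Col4a6 was called and Col4a5 was not. Col4a6 was at 49.7, 52.1, 49.9 and 52.3 CPM in the cKO libraries and at 34.4, 32.4, 48.5 and 36.9 CPM in the controls, with control replicate 3 just under the lowest cKO value (log2 fold change 0.42 with an SE of 0.10, edgeR adjusted p = 0.00948). Col4a5 was at 77.1, 80.4, 85.6 and 78.8 CPM against 61.2, 66.3, 78.3 and 70.7 CPM, with control replicate 3 inside the cKO range (log2 0.22, edgeR adjusted p = 0.0534), and it was called higher in 5 of the 19 alternatives. Since the 2 libraries with Xist counts are both cKO, the fit without them bears on X-linked genes: Col4a6 was then at log2 0.42 (edgeR adjusted p = 0.0529), and without control replicates 2 and 4 at 0.30 (0.159). Col4a3 and Col4a4, chains of kidney and lens capsule membranes whose genes start head to head 71 bases apart on chromosome 1, had means of 0.279% and 0.203% of collagen IV FPKM in the cKO libraries and 0.255% and 0.278% in the controls. Col18a1, the precursor of endostatin, was at 66.2 ± 2.46 against 69.2 ± 6.39 CPM (log2 -0.06).

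**Figure D3:**
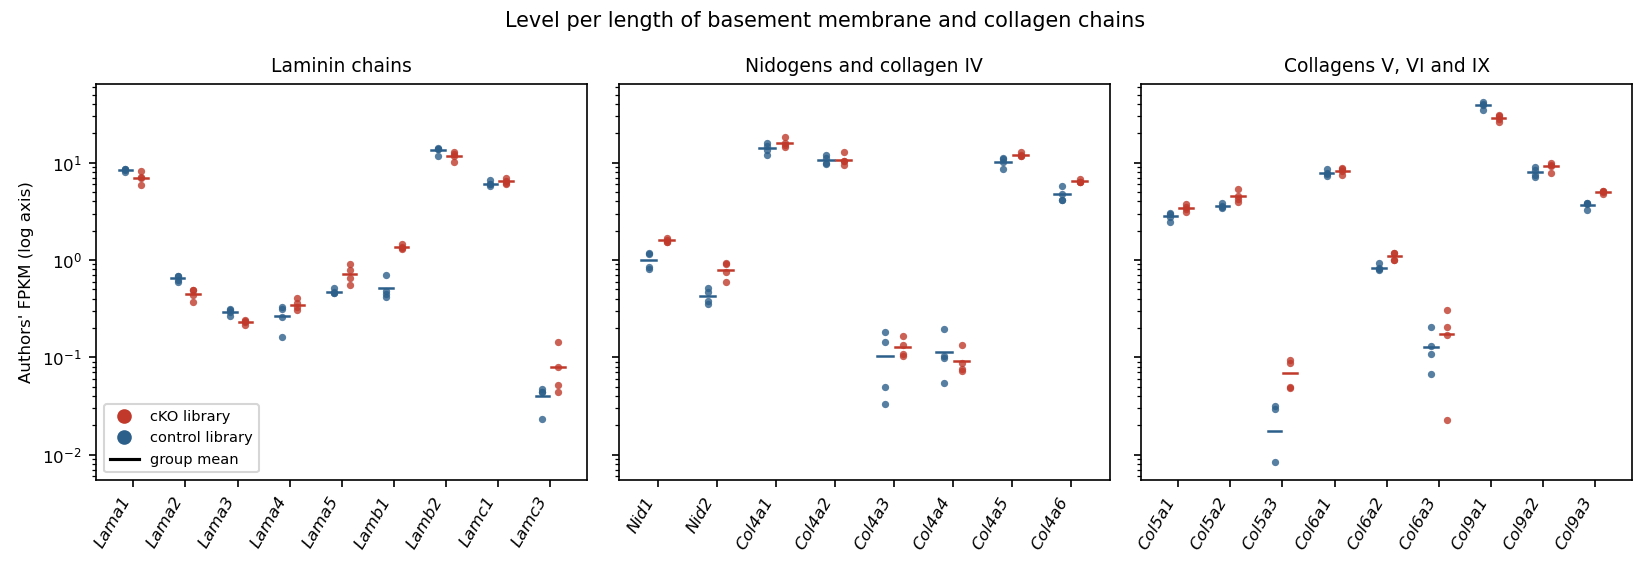
The authors' FPKM (level per gene length, log axis) of laminin chains, nidogens and collagens IV, V, VI and IX in each cKO (red) and control (blue) library, with the group mean as a line; the control library in which Col5a3 is listed at 0 has no point. Lamb1, Nid1, Nid2 and Col9a3 have all cKO points above all control points, and Col9a1 has them below.

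Collagen IX, which coats the collagen II fibrils of the vitreous, was lower in its main chain and higher in another. Col9a1 (ENSMUSG00000026147, chromosome 1, 24177610 to 24252684, plus strand) had the highest FPKM of the 81 genes. It was at 149.8, 136, 154 and 137 CPM in the cKO libraries and 207, 173, 214 and 203 CPM in the controls, so that each cKO library lay below each control, and fell by 0.47 on the log2 scale (SE 0.06, edgeR adjusted p = 0.000154). Col9a3, a partner chain in the same trimer, was at 19.5, 19, 19.2 and 18.8 CPM in the cKO libraries and 13.2, 14.5, 15.7 and 14 CPM in the controls, above them in each case (log2 fold change 0.41 with an SE of 0.07, edgeR adjusted p = 0.00128). The last chain, Col9a2, was at 29.2, 25.2, 28 and 29.9 CPM in the cKO libraries and 24.2, 27.4, 27.1 and 21.4 CPM in the controls, with overlap (log2 0.17, edgeR adjusted p = 0.226). Per length, Col9a1 made up 66.9 ± 1.4% of the FPKM of the 3 chains in the cKO libraries and 76.8 ± 2.74% in the controls, and Col9a3 11.7 ± 0.477% and 7.3 ± 0.616% (SD, n = 4). Exons of Col9a3 share 234 of 3853 bases with Tcfl5 on the opposite strand. Tcfl5 itself rose by log2 1.92 and had 692 counts against 2107 for Col9a3. The part of the Col9a3 difference that comes from shared reads was not tested. Col9a1 has another RefSeq start, 17593 bases downstream, known for a short form in the eye, and the whole-gene count does not separate the forms.

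Among the fibrillar collagens, the collagen V chains rose slightly. Col5a2 was at 42.9, 39.2, 50.9 and 39.5 CPM in the cKO libraries and 34.1, 35.7, 36 and 32.9 CPM in the controls (log2 fold change 0.32 with an SE of 0.08, edgeR adjusted p = 0.0153). Col5a1 was at 28.9 ± 1.94 against 24.1 ± 1.57 CPM (log2 fold change 0.26 with an SE of 0.07, edgeR adjusted p = 0.0218). Neither pair of ranges overlapped, but the increases were 1.25-fold and 1.2-fold, the Col5a2 call ended without control replicate 4, and the Col5a1 call without cKO replicate 3, cKO replicate 4 or control replicate 1. Col2a1, the main fibril collagen of vitreous and cartilage, was at 76.7 ± 8.67 and 76.9 ± 5.7 CPM (95% limits of the log2 fold change -0.17 to 0.16), and its fibril partner Col11a1 at log2 -0.22 (edgeR adjusted p = 0.117).

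The largest increase of all tested members was that of Col26a1 (ENSMUSG00000004415, chromosome 5, 136741759 to 136883209, minus strand), a short collagen with an EMI domain. It was at 17.7, 24.1, 22 and 20.4 CPM in the cKO libraries and at 5.92, 5.5, 8.35 and 8.91 CPM in the controls. Even the lowest cKO value lay far above the highest control value, and the increase was 2.9-fold (log2 fold change 1.54 with an SE of 0.14, edgeR adjusted p = 3.77e-06). In collagen VI, which forms beaded microfibrils, Col6a2 was at 9.06 ± 0.691 against 7.02 ± 0.438 CPM (log2 fold change 0.37 with an SE of 0.10, edgeR adjusted p = 0.0228), a call lost in 8 alternatives, among them DESeq2 and leaving out cKO replicate 3, cKO replicate 4 or control replicate 2. Its neighbour Col6a1, 85161 bases away and with more reads, was at 35.8 ± 2.16 against 34.7 ± 3.64 CPM (log2 0.05). Of the transmembrane collagens, Col23a1, the most abundant, was at 75 ± 1.64 against 82 ± 5.02 CPM. Its groups did not overlap, yet the difference of log2 -0.13 was not called (edgeR adjusted p = 0.145). Col25a1 was at log2 0.08 (95% limits -0.32 to 0.49).

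Of 17 ADAMTS protease genes, 16 were tested, with 5 higher and 2 lower. All 5 that rose had a control mean under 2 FPKM, as did 13 of the 16 tested. Adamts18 (ENSMUSG00000053399, chromosome 8, 113697126 to 113848738, minus strand), known from eye and lung development, was at 15.2, 13.7, 13.8 and 11.6 CPM in the cKO libraries and 8.61, 7.07, 7.22 and 7.46 CPM in the controls, without overlap (log2 fold change 0.84 with an SE of 0.10, edgeR adjusted p = 5.8e-05). The versican-cutting protease Adamts20 was at 5.91, 6.54, 5.84 and 4.45 CPM against 3.37, 2.49, 2.81 and 3.62 CPM, also without overlap (log2 fold change 0.88 with an SE of 0.16, edgeR adjusted p = 0.00144). Adamts3, which removes the amino-terminal propeptide of procollagen II, was at 6.99, 6.27, 5.38 and 6.49 CPM against 4.27, 3.99, 3.58 and 3.17 CPM, with each cKO library above each control (log2 fold change 0.75 with an SE of 0.13, edgeR adjusted p = 0.00126). Adamts9, another versican-cutting protease, was at 7.36, 7.73, 4.72 and 3.83 CPM against 4.04, 2.69, 1.47 and 1.67 CPM, so that cKO replicate 4 lay below control replicate 1. It had the largest fold of the family (log2 fold change 1.29 with an SE of 0.28, edgeR adjusted p = 0.00697), and its call ended without control replicates 2 and 4 (log2 1.11). Adamts7 was at 9.05 ± 0.923 against 6.63 ± 1.33 CPM with overlapping groups (log2 fold change 0.46 with an SE of 0.13, edgeR adjusted p = 0.0369), a call lost in 9 alternatives, among them leaving out cKO replicate 1, 3 or 4 or control replicate 1, 2 or 4. Exons of Adamts9 share 1381 of 15048 bases with A730049H05Rik on the opposite strand, which had 135 counts against 528. A730049H05Rik was itself called higher at log2 1.96 (edgeR adjusted p = 0.0119). The part of the Adamts9 difference that comes from shared reads was not tested.

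Adamts1 and Adamts15 fell. Adamts1, which cuts versican and aggrecan and had the highest FPKM of the family, was at 62, 62.4, 62.6 and 68.5 CPM in the cKO libraries and 68, 80.9, 78.1 and 76.9 CPM in the controls. Control replicate 1 lay inside the cKO range (log2 fold change -0.25 with an SE of 0.06, edgeR adjusted p = 0.0144), and the call ended without control replicate 2 and without the 2 libraries with Xist counts (log2 -0.22). Adamts15 was at 7.68, 4.59, 7.08 and 7.41 CPM against 8.91, 9.95, 9.26 and 11.5 CPM, without overlap (log2 fold change -0.56 with an SE of 0.14, edgeR adjusted p = 0.0163); the call ended without control replicate 4 and without the 2 libraries with Xist counts (log2 -0.40). Their chromosomal neighbours were not called: Adamts5, 53059 bases from Adamts1, was at log2 -0.15 (edgeR adjusted p = 0.294), and Adamts8, 20109 bases from Adamts15, at log2 0.19 (0.517). The aggrecanase Adamts4 was at 45 ± 3.09 against 49.3 ± 3.21 CPM (log2 -0.13). Adamtsl1, an ADAMTS-like protein without a protease domain, was at 3.76, 4.53, 4.13 and 4.51 CPM in the cKO libraries and 2.62, 2.1, 2.24 and 2.12 CPM in the controls, an increase without overlap (log2 fold change 0.90 with an SE of 0.14, edgeR adjusted p = 0.000574).

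**Figure D4:**
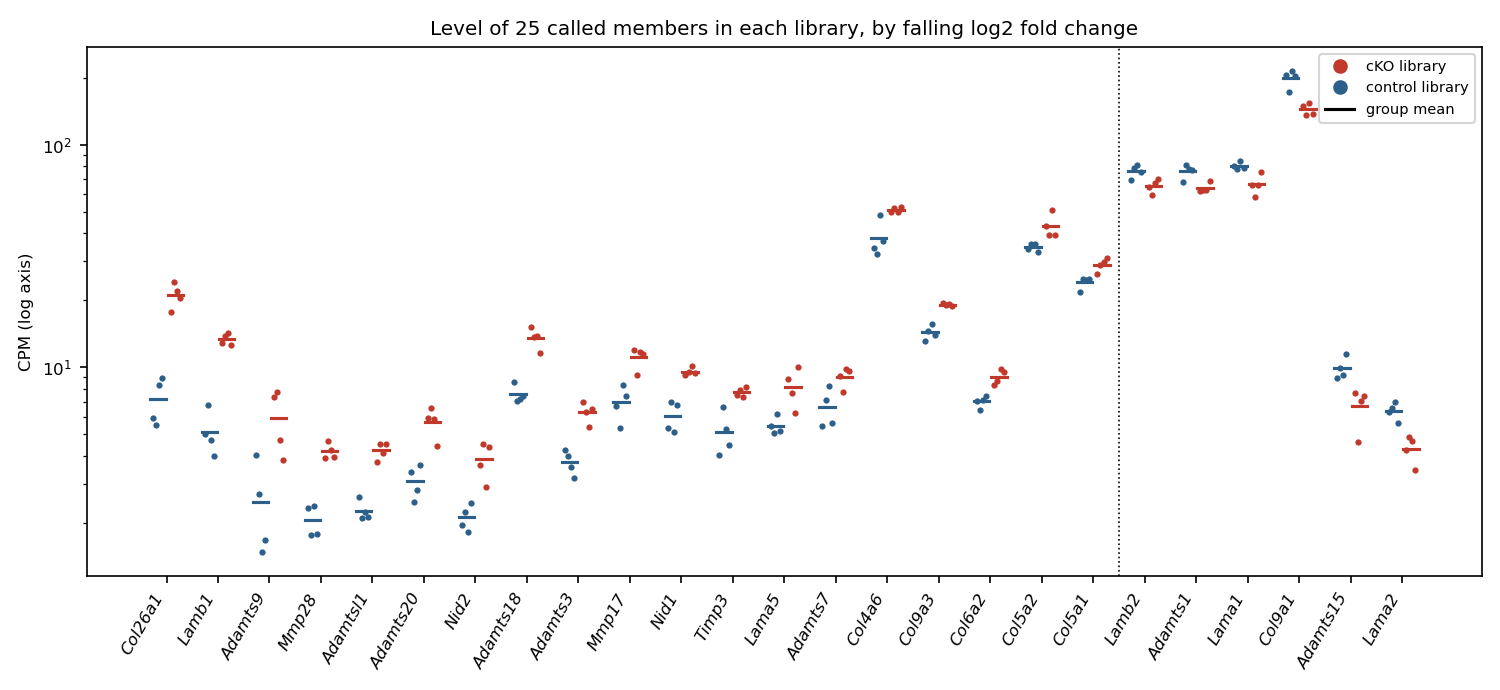
CPM (log axis) of 25 of the 26 called members in each cKO (red) and control (blue) library, ordered by falling log2 fold change, with the group mean as a line; the dotted line parts the 19 drawn that were called higher from the 6 called lower. The groups are apart in 17 of the 19 and in 4 of the 6, and overlap for Adamts9, Adamts7, Lamb2 and Adamts1.

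Of 9 metalloproteinases tested, 2 rose and 0 fell. Mmp28, also called epilysin, a secreted protease, was at 3.92, 4.66, 4.26 and 3.95 CPM in the cKO libraries and 2.32, 1.77, 2.38 and 1.78 CPM in the controls (log2 fold change 1.03 with an SE of 0.15, edgeR adjusted p = 0.000341). Mmp17, a protease held at the membrane by a lipid anchor, was at 11.9, 9.26, 11.7 and 11.5 CPM against 6.66, 5.3, 8.35 and 7.46 CPM (log2 fold change 0.68 with an SE of 0.13, edgeR adjusted p = 0.00235). Neither pair of ranges overlapped. The abundant membrane-type proteases were not called. Mmp14, the activator of Mmp2 and the most abundant of them at 23.4 ± 2.35 against 26.3 ± 0.676 FPKM, was at log2 -0.19 (edgeR adjusted p = 0.0689), and was called lower in 2 of the 19 alternatives, DESeq2 and without control replicate 4. Mmp24 was at log2 0.16 (edgeR adjusted p = 0.123), Mmp15 at 0.05 and Mmp16 at -0.12. Mmp2, which is not of the membrane type, was at 0.14 and was not called either. Exons of Mmp28 share 466 of 3874 bases with 1700020L24Rik on the opposite strand, which had 115 counts against 393. It was at log2 0.55 and was not called (edgeR adjusted p = 0.282).

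Of the inhibitors, Timp3 rose and Timp2 did not pass. Timp3, the inhibitor that stays bound to matrix, was at 7.47, 7.87, 7.35 and 8.16 CPM in the cKO libraries and at 4.04, 6.61, 5.26 and 4.46 CPM in the controls, without overlap (log2 fold change 0.60 with an SE of 0.14, edgeR adjusted p = 0.00902). It lies within Syn3, and 1733 of its 8144 exon bases are shared with that gene on the opposite strand, which had 931 counts against 806 for Timp3 and was itself called higher at log2 0.43, so the part of the Timp3 difference that comes from shared reads was not tested. The Timp3 call ended without the 2 libraries with Xist counts (log2 0.61) and without control replicates 1 and 3 (0.49). Timp2, the most abundant inhibitor, was at 35.8, 35.4, 33.3 and 36.9 CPM against 33.2, 30.9, 31.3 and 28.2 CPM. All its cKO values were above all its controls, at log2 0.20 and an edgeR adjusted p of 0.0531, and it was called in 4 of the 19 alternatives.

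The 12 members that were not tested had 37 to 83 counts each over the 8 libraries: Adamts2, Adamtsl4, Adamtsl5, Col10a1, Col20a1, Col27a1, Col4a4, Col5a3, Col6a6, Lamc3, Mmp9 and Timp1. Adamtsl5 was counted 8, 9, 10 and 9 times in cKO replicates 1 to 4 and 3, 3, 1 and 2 times in the controls. Col5a3 was counted 6, 5, 9 and 10 times against 3, 3, 0 and 1. Both were called higher by edgeR without a filter, and Adamtsl5 also by DESeq2; they are singled out here after their values were seen. For neither did the cKO and control counts overlap.

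Some members varied more between libraries of a group than between the groups. The 4 tested members with the widest spread within groups, picked for that spread, were Col8a1, Adamtsl2, Col6a3 and Col12a1. Col6a3, the long chain of collagen VI, was at 0.269, 2.09, 2.43 and 3.52 CPM in the cKO libraries and 1.35, 2.42, 0.842 and 1.5 CPM in the controls. Col12a1, a collagen that binds to interstitial fibrils, was at 0.376, 1.81, 2.89 and 2.35 CPM in the cKO libraries and 0.973, 1.96, 0.561 and 1.34 CPM in the controls. Both were lowest in cKO replicate 1 and, among the controls, in replicate 3. The interstitial collagens Col1a1, Col1a2 and Col3a1, left out of the members and typical of mesenchyme, summed to 8.38, 27.9, 53.8 and 50.05 CPM in the cKO libraries and 22.2, 34.3, 13.7 and 41 CPM in the controls, and were lowest in the same libraries. Adamtsl2, which binds fibrillin, followed another order: 0.537, 0.557, 3.21 and 2.47 CPM in the cKO libraries and 0.30, 0.327, 1.68 and 1.62 CPM in the controls, so that replicates 3 and 4 were high in both groups. Col8a1, a short-chain collagen of cornea and vessels, was at 2.74, 5.71, 1.44 and 4.32 CPM in the cKO libraries and 1.87, 12.8, 1.82 and 7.41 CPM in the controls, with control replicates 2 and 4 the highest of all and cKO replicate 2 the highest of its group. Those controls had the least mitochondrial rRNA of their group and that cKO library the most of all 8. Pigment epithelium markers, listed below, summed to 22.9, 38.2, 24.3 and 29 CPM in the cKO libraries. In the controls they summed to 19.1, 45.8, 20.3 and 31.1 CPM, so replicate 2 was the highest of each group. The part of either in the Col8a1 values was not tested. None of the 4 was called (edgeR adjusted p = 0.384 for Col8a1, 0.513 for Adamtsl2, 0.683 for Col6a3 and 0.514 for Col12a1). Without control replicates 1 and 3, Col8a1 was called lower at log2 -1.51, and Adamtsl2 was called higher with the replicate number as a block.

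**Figure D5:**
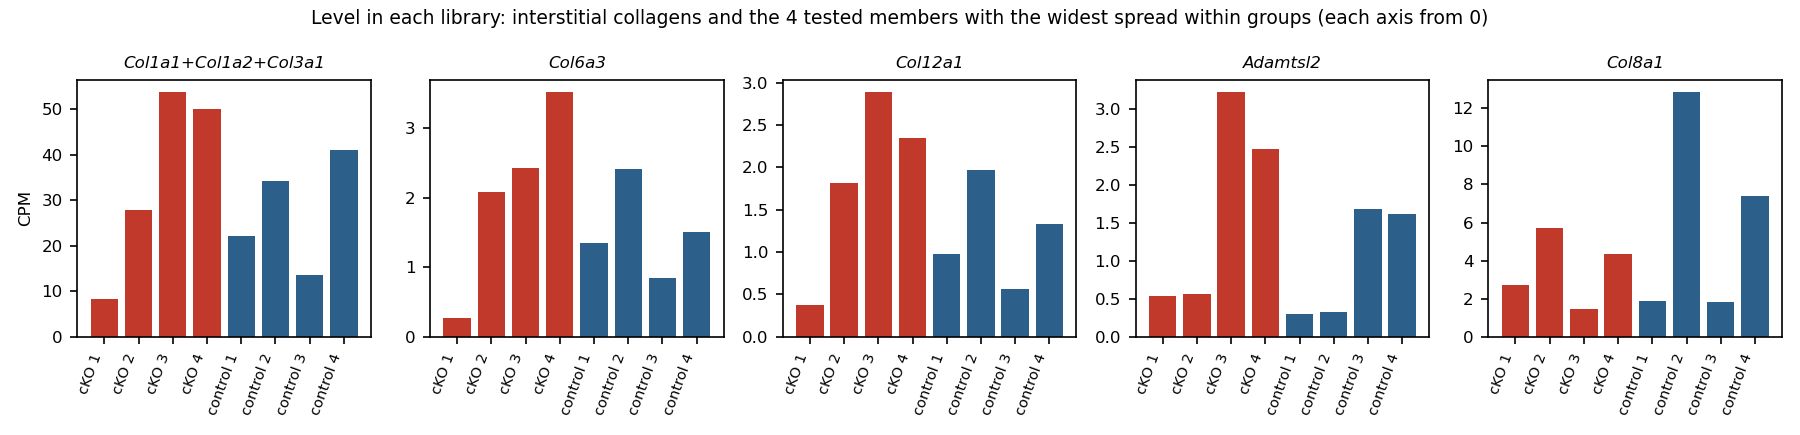
CPM in each library (bars from 0; cKO red, control blue) of Col1a1, Col1a2 and Col3a1 summed, and of the 4 tested members with the widest spread within groups. The summed interstitial collagens, Col6a3 and Col12a1 are all lowest in cKO replicate 1, whereas Col8a1 is highest in control replicate 2.

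In bulk RNA, more cells of a type and more RNA per cell cannot be told apart, and several members are made by mesenchyme and vessels as well as by neural retina. The marker lists below are short, and over all genes tested 8.35% were called higher and 3.46% lower. Of the 12 mesenchyme markers, 11 were tested and 5 were higher, among them the transcription factor genes Prrx1 (log2 1.93) and Twist1 (3.83) and the receptor gene Pdgfra (1.01), while the matrix genes Col1a1 (log2 0.17), Col1a2 (0.21), Col3a1 (0.72) and Dcn (0.50) were not called. The list summed to 46.1 to 99.2 CPM in the cKO libraries and 42.5 to 70.3 CPM in the controls; Lum was at 0 in cKO replicate 1 and Twist1 in control replicate 1. Of the 10 endothelial markers, 4 were not analysed here and 4 were tested: Cldn5 (log2 0.43) and Egfl7 (0.57) were higher and Kdr (-0.24) lower. Kdr, which retinal progenitors also express, stood at 281 and 332 CPM and made up nearly all of the endothelial sum (276 to 315 CPM in the cKO libraries and 326 to 354 CPM in the controls), and the defining genes Pecam1 and Cdh5 stood at 0.597 and 0.474 CPM in the cKO libraries and 0.524 and 0.322 CPM in the controls. Of 8 pericyte markers, 5 were tested and 1 was higher, Cspg4 (log2 0.84), and the list summed to 47.3 to 63.7 CPM in the cKO libraries and 51.1 to 55.8 CPM in the controls. Most of that sum came from Notch3 (32.8 against 33.8 CPM) and Pdgfrb (13.7 against 15.7 CPM), which is also in the mesenchyme list. Rgs5 and Abcc9 stood at 0.570 and 0.495 CPM in the cKO libraries and 0.202 and 0.549 CPM in the controls. Of 9 microglia and macrophage markers, 8 were tested and 4 were higher, among them P2ry12 (log2 0.74) and C1qb (0.63), and the list summed to 46.5 to 55.3 CPM in the cKO libraries and 33.3 to 42.1 CPM in the controls, without overlap. Of 5 astrocyte markers, 3 were not analysed here and 2 were tested, of which 1 was higher, Aqp4 (log2 1.54), with sums of 5.5 to 8.63 CPM in the cKO libraries and 3.27 to 4.77 CPM in the controls.

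For the remaining neighbours, the marker sums of the cKO and control libraries overlapped, as they did for mesenchyme and pericytes. Of 9 pigment epithelium markers, 6 were tested and 1 was higher, Rlbp1 (log2 0.43), which Müller glia also express, and sums were 22.9 to 38.2 CPM in the cKO libraries and 19.1 to 45.8 CPM in the controls. Of 10 lens markers, 2 were tested, of 8 erythroid markers 7 were, and 0 of these were called by edgeR, with sums of 3.27 to 10.3 CPM in the cKO libraries and 2.39 to 13.7 CPM in the controls for lens and 91.9 to 877 CPM in the cKO libraries and 162 to 1297 CPM in the controls for the erythroid list. The lens genes Cryaa, Cryba4 and Crybb1 were at 0 in some libraries. The part of these cell types in the matrix gene differences was not tested.

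Genes that work with the members were followed through 4 lists. Over all genes tested, 8.35% were called higher and 3.46% lower, so 1 gene called higher among 11 or 14 lies near that share. Of 24 tested genes of collagen modification, processing and crosslinking, 4 were higher and 0 lower, with a median log2 fold change of 0.06. They were Loxl1, a lysyl oxidase that crosslinks elastin and collagen (log2 0.98), the procollagen proteinase enhancer Pcolce2 (0.74), the lysyl hydroxylase Plod1 (0.38) and the procollagen proteinase Bmp1 (0.26). The collagen chaperone Serpinh1 (log2 -0.12) and the prolyl hydroxylase subunit P4hb (-0.03), each abundant, were not called. Of 14 other basement membrane genes tested, 3 were higher and 0 lower, with a median of 0.13: the laminin-related guidance gene Ntn1 (1.19), Fbln2, which binds nidogen and laminin (0.68), and Egflam, the dystroglycan ligand pikachurin of photoreceptor synapses (0.19). Perlecan (Hspg2, log2 0.13) and agrin (Agrn, -0.14) were not called. Of 14 receptor genes tested, 1 was higher and 2 were lower, with a median of -0.06. The integrin subunit Itga3 was at log2 0.39, and the laminin receptor subunit Itga6, at 115 ± 10.8 against 141 ± 9.32 CPM, at -0.30; Itgb8 was at -0.19. Of 11 tested substrates and partners of the proteases, 1 was higher, tenascin C (Tnc, log2 1.58, from 1.66 ± 0.385 to 4.92 ± 1.06 CPM), and 0 were lower, with a median of -0.09. The ADAMTS substrate versican (Vcan) was at log2 0.17 and fibronectin (Fn1) at -0.23 (edgeR adjusted p = 0.0687).

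Members were also compared with those near them on the chromosome. Of the 13 pairs of members next in order and less than 500 kb apart, both genes were tested in 10. In 1 pair both were called, Lama5 and Col9a3 on chromosome 2, 371930 bases apart and both higher. In 6 pairs 1 gene was called, and in 3 neither was, where 37.7% of all tested members were called. Besides Col6a2 with Col6a1, Col4a6 with Col4a5 and the ADAMTS pairs above, Col9a1, which fell, lies 9205 bases from Col19a1, which is singled out after its values were seen and was at log2 0.57 (edgeR adjusted p = 0.0605) with each cKO library above each control. Whether the genes of a pair differ in their fold change was not tested.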

How the data were processed

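RNA was sequenced from 4 cKO and 4 control samples of peripheral retina. The authors deposited whole-number counts per gene and library, not normalized, and FPKM values, which divide by gene length and reads, per the file headers. The authors' log2 ratio and their adjusted p score, deposited on an unnamed scale, were not used. Novoalign 2.08.01, mm10 and DESeq2 are named per the submitters' processing notes; the counter, its use of strand and any filter were not given in the sources used here. No row sums to fewer than 18 counts.

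Counts were fitted with edgeR 4.0.16 in R 4.3.3 (TMM, filterByExpr with a minimum count of 10, glmQLFit, glmQLFTest, no covariate), which left out 1082 of 16096 genes. Standard errors and 95% limits follow from the quasi-likelihood F statistic. The procedure was also run on counts simulated from the fitted means and dispersions, which checks the code and not the calls made here. The 19 alternatives changed the filter, normalization, test (DESeq2 1.42.0), replicate block and libraries. Members and lists were chosen with earlier results of these data known, so the counts of calls are descriptions. Every called member and the 2 members of each class with the highest mean FPKM were named; other members and chain partners were added after their values were seen; 1 called member and a few other genes are not reported here. Pairs of libraries within a group differed by 4.68 to 24.0 chi-square per degree of freedom, so none was taken for a repeat. Coordinates and exon overlaps are from GENCODE M21, matched by identifier for 81 members. Promoter windows are from RefSeq, the one nearest the GENCODE start where a gene has several.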

Additional observations from a re-analysis of the deposited data

Results flagged for a closer look

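Of 84 groups of 4 libraries checked among the 42 named members, 4 held a library far from the other 3, where chance gives about 1 in 20. Col5a1 was at 21.7 CPM in control replicate 1 and at 24.7 to 24.9 CPM in the other controls. Col23a1 was at 89.5 CPM in control replicate 3 and 79.1 to 80.2 CPM in the others. Adamts1 was at 68.5 CPM in cKO replicate 4, against 62.0 to 62.6 CPM. Mmp17 was at 9.26 CPM in cKO replicate 2, against 11.5 to 11.9 CPM. Without control replicate 1 the call of Col5a1 ended, and those of Adamts1 and Mmp17 held without the library named.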

How the results depend on the processing

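Of 798 fits of the 42 named members under 19 alternatives, 704 kept direction and side of the threshold, 65 ended a call, 13 gave one, 16 changed sign without a call, and 0 reversed a call. The number of members called higher was 17 to 21 and of those called lower 4 to 7 when each library was left out in turn. With counts scaled by library totals alone, 3 members were lower; that scaling moves the median log2 fold change of all genes from -0.01 to 0.02, and 273 genes were lower in all. Without the 2 libraries with Xist counts, 2 members were lower, and over all genes 800 were higher and 255 lower; fewer libraries were then compared. Without control replicates 2 and 4, 13 members were higher and 2 lower, and over all genes 696 were higher and 243 lower. Without control replicates 1 and 3, 235 genes were lower, and without the 2 libraries with lens crystallin counts 323. Over all genes, leaving out 1 library gave 1008 to 1233 higher and 329 to 667 lower. Beyond the smaller number of libraries, the cause of these moves was not tested. With the replicate number as a block, 22 members were higher and 6 lower, and the 26 calls remained; same-numbered libraries deviated together with correlations of 0.23, -0.09, 0.01 and 0.17, not every library correlated best with its own number, and the numbers were not taken as pairs. Depth limits the 12 untested members most, with at most 83 counts over the 8 libraries.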
